A study of Mus musculus with 2 samples.

Results

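The genes described here are transcription factors that set the osteoblast programme and its early mesenchymal restraint: Sp7, the Msx homeobox genes Msx1 and Msx2, the Dlx homeobox genes Dlx3, Dlx5 and Dlx6, and the basic helix-loop-helix genes Twist1 and Twist2, with Runx2 as the other named member. They were chosen by name, as every probe set whose platform annotation gives a single symbol and that symbol is in the list. This gave 11 probe sets for 8 of the 9 genes, out of 34958 such probe sets for 18194 genes; Runx2 was not analysed here. The levels come from osteoblastic cells of the tibia and femur of C57Bl/6 embryos at stage E18.5. The cells were sorted for the Ebf2-lacZ marker, which both genotypes carry, and were grown in alpha MEM with 10% FCS without passage, so they are a sorted and expanded culture and not fresh bone. One group was Ebf2+/-, with 1 working copy of the transcription factor gene Ebf2, and the other Ebf2-/-, with none; no wild-type cells were used here. Each genotype is 1 array, the labels name 3 mice per genotype, and they do not say whether RNA of those mice was pooled. With 1 array per genotype no difference has a replicate check, no test was possible, and every value below describes these 2 arrays.

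Bone-forming cells arise from mesenchymal progenitors when Runx2 and, downstream of it, Sp7 (osterix) switch on matrix and mineral genes. Msx and Dlx proteins are homeodomain factors that respond to bone morphogenetic protein (BMP) signals, bind similar DNA sites and can act against each other, with Msx proteins mostly repressing and Dlx proteins mostly activating. Twist proteins bind E-boxes as dimers, restrain Runx2 in early progenitors and are tied to fibroblast growth factor (FGF) signalling in the skull sutures.

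In the Ebf2-/- cells both Msx genes had lower signal, Msx2 by 4.95-fold and Msx1 by 2.53-fold, and Twist2 had 2.35-fold higher signal. Dlx5 (1.90-fold higher), Twist1 (1.33-fold higher) and Sp7 (1.57-fold lower) differed by less than 2-fold, and Dlx3 and Dlx6 were not above background on either array. Background here is a floor for each array, the 95th percentile of the signals of 86 chemosensory receptor probe sets (olfactory, vomeronasal, taste), which was 17.8 on the Ebf2+/- and 23.8 on the Ebf2-/- array. A gene above the floor on at least 1 array is called measured, and the brightest of its probe sets by mean log2 signal gives its value. Of the 6 measured members, 1 passed 2-fold upwards (higher in Ebf2-/-) and 2 passed it downwards, beside 6.30% upwards and 3.46% downwards over all 11785 measured genes (4.48% and 5.30% after scaling to spike-in probe sets). The median log2 ratio (Ebf2-/- over Ebf2+/-) of the 6 was -0.12, with a range from -2.31 to 1.23, against 0.03 over all measured genes. The members therefore lay on both sides of no difference and did not shift together. In a bulk culture, fewer cells of a type and less RNA per cell cannot be told apart.

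**Figure D1:**
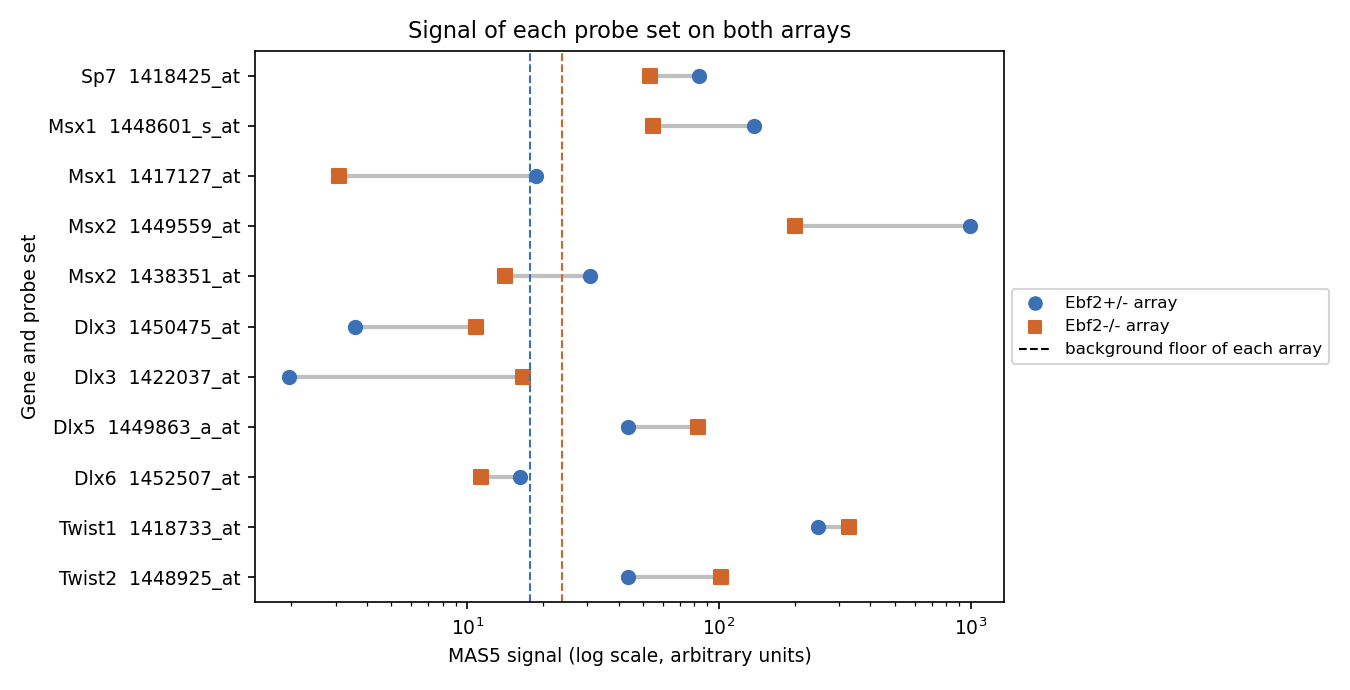
MAS5 signal (log scale, arbitrary units) of each of the 11 probe sets on the Ebf2+/- array (circles) and the Ebf2-/- array (squares), with dashed lines at the floors of 17.8 and 23.8. All 4 Msx probe sets have their circle to the right of their square, both Twist probe sets and Dlx5 have the square to the right, and the Dlx3 and Dlx6 points stay left of the floor of their array.

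Some facts of the arrays bear on all of these values. The 18 spike-in probe sets, those of the Bio and Cre controls, had a mean log2 ratio of 0.18 ± 0.15 (SD over probe sets). Scaling to them lowers each log2 ratio by that mean, and was not tested as a measure of RNA per cell. Different probe sets of a gene differed in log2 ratio with a pooled SD of 0.44 over 4119 genes. The 3' over 5' signal ratio, a sign of RNA integrity, was 1.97 on the Ebf2+/- and 2.79 on the Ebf2-/- array for beta-actin, and 1.30 and 1.60 for Gapdh. Ebf2 itself was near the floor: its probe sets read 24.9, 14.4 and 13.7 on the Ebf2+/- array and 20.6, 25.1 and 14.4 on the Ebf2-/- array, so the transcript does not separate the genotypes. As to the labelled cell type, the osteoblast and mesenchyme markers Col1a1, Col1a2, Sparc, Postn and Cdh11 were bright on both arrays. The markers of mineralizing osteoblasts and osteocytes Ibsp, Dmp1 and Phex were not above background on either. Alpl, which encodes alkaline phosphatase, was dim (25.4 and 51.8). The osteoblast markers Bglap, Bglap2 and Spp1 were not analysed here.

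Msx2, a BMP-responsive homeobox gene of skull, limb and osteoblast progenitors, read 992 on the Ebf2+/- and 200.5 on the Ebf2-/- array by probe set 1449559_at. The log2 ratio was -2.31, the 28th lowest of 10057 genes above the floor on both arrays. Among the 1510 genes whose mean log2 signal lay within 0.5 of that of Msx2, 1.59% were at least 2-fold lower. Its other probe set, 1438351_at, read 30.9 and 14.1, above the floor on the Ebf2+/- array only, which gives at least 1.30-fold lower. Both probe sets were thus lower in the Ebf2-/- cells, but the dim one cannot give the size. With both averaged, the log2 ratio of Msx2 was -1.34 with the floor and -1.72 without it.

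Msx1, the close relative of Msx2 that acts with it in tooth, palate and limb, read 138 and 54.5 by probe set 1448601_s_at, a log2 ratio of -1.34. This was the 146th lowest of the 10057 genes, and of the 2015 genes of similar signal 4.76% were at least 2-fold lower. The suffix _s_at marks a probe set that may match transcripts of more than 1 gene. The other Msx1 probe set, 1417127_at, read 18.7 and 3.10, just above the floor on the Ebf2+/- array and below it on the Ebf2-/- array, and no fold can be given because 18.7 is below the floor of the other array. The 2-fold size of Msx1 therefore rests on the _s_at probe set alone. The log2 ratio of Msx1 was -0.84 with a pseudocount of 50 and -0.49 as the mean of floor-set ratios over both probe sets. That mean counts 1417127_at as 0.35, a value set by the unequal floors, while its log2 ratio without a floor was -2.60. The mean therefore does not show a smaller difference.

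The 250 bases before the RefSeq start sites of the Msx genes (GRCm38.p6) are shown because both genes had lower signal in the Ebf2-/- cells. Msx1 lies on the minus strand at chr5:37824586-37824835 and Msx2 on the minus strand at chr13:53472781-53473030. Capitals mark matches on either strand to the E-box CANNTG and to the CCAAT box (CCAAT).
Msx1: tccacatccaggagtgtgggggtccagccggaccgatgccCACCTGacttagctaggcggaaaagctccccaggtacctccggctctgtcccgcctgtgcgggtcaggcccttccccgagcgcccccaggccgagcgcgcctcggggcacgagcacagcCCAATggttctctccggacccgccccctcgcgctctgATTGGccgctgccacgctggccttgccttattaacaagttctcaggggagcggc
Msx2: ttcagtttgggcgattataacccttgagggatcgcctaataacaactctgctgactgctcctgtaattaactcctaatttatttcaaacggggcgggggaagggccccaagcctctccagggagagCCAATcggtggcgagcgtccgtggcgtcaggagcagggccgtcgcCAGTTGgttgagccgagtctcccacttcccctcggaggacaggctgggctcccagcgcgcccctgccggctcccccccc
Msx1 has 1 E-box match (cacctg, starting 210 bases before the start site) and 2 CCAAT matches (91 and 54 bases before it, the latter on the other strand). Msx2 has 1 E-box match (cagttg, 79 bases before) and 1 CCAAT match (124 bases before). Of all 32851 windows of the same length, 66.2% hold an E-box match and 33.9% a CCAAT match. The CCAAT letters were added to the search after the sequences were seen. Neither window holds the EBF core CCCNNGGG (in 11.8% of all windows), the Runx core TGTGGT (14.1%), the BMP Smad site GGCGCC (9.59%) or TATAAA (12.4%). The homeodomain letters TAATTG (7.17%) are also in neither window. Other homeodomain letters were not searched, and the Msx2 window holds taatta. EBF core, E-box and Smad site are palindromes, and the searches covered both strands. The GC content was 68.0% for Msx1 and 61.6% for Msx2, against a median of 52.4%.

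The genes whose pair of log2 signals lay nearest to that of Msx2 were Kcnk2, a potassium channel gene, which read 906 and 198, the chromatin protein gene Hmga2 with 1269 and 243, and Retreg1 with 736 and 241. Their Euclidean distances from Msx2 were 0.13, 0.45 and 0.51 on the log2 scale. Likeness over 2 arrays is a thin measure, since it says only that a gene has the same level and the same difference.

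**Figure D2:**
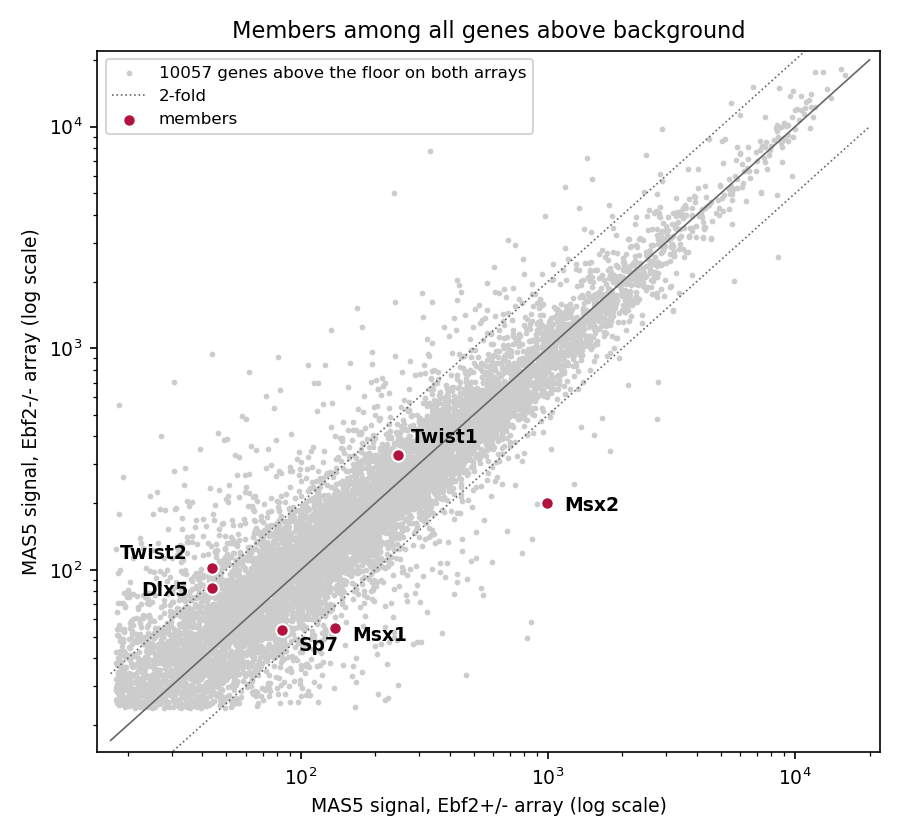
MAS5 signal on the Ebf2+/- array (x axis) against the Ebf2-/- array (y axis), both on log scales, for the 10057 genes above the floor on both arrays (grey) and the 6 measured members (red). The solid line marks equal signal and the dotted lines 2-fold. Msx2 (992 and 200.5) and Msx1 (138 and 54.5) lie below the lower dotted line, Twist2 (43.6 and 102) lies above the upper one, and the others lie between.

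Sp7, the zinc finger factor without which no osteoblasts form, read 83.7 and 53.3, a log2 ratio of -0.65. The value was lower in the Ebf2-/- cells but under 2-fold, and stayed between -0.83 and -0.37 across 11 other ways of processing. Of the 1924 genes of similar signal, 15.3% differed by at least 2-fold either way. Its value rests on 1 probe set, since no other was assigned to Sp7 alone in the annotation used.

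Of the Dlx genes, Dlx5, an activator of osteoblast genes that lies beside Dlx6 in the genome, read 43.7 and 83.0, a log2 ratio of 0.93. It was the 703rd highest of the 10057 genes, and of the 1813 genes of similar signal 10.2% were at least 2-fold higher. Dlx5 was higher in the Ebf2-/- cells, opposite in direction to Msx1 and Msx2, and stayed below 2-fold under each of the 10 alternatives that gave it a value. The 1 probe set assigned to it carries the suffix _a_at, which marks transcripts of the same gene. Dlx6 read 16.2 and 11.3 and was not above the floor on either array. Dlx3, known from skin, tooth and bone, read 3.58 and 10.8 by 1450475_at and 1.96 and 16.7 by 1422037_at. All 4 values were under the floor, so these higher readings give no fold.

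Other Dlx genes went the same way as Dlx5. Dlx1 read 37.4 and 68.9 (1.84-fold higher) and Dlx2 41.6 and 71.3 (1.72-fold higher), while Dlx4 was not above the floor. The Dlx6 antisense transcript Dlx6os1 read 10.7 and 29.4, above the floor in the Ebf2-/- cells only and at least 1.65-fold higher. The antisense transcript Dlx1as read 18.2 and 14.2, for which no fold can be given. Thus the 3 Dlx genes above background on both arrays all had higher signal in the Ebf2-/- cells, each by less than 2-fold. All 3 were dim, and a higher signal alone is common. The median log2 ratio of the 10057 genes above the floor on both arrays was 0.0008, so about as many were higher as lower.

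Twist2 (Dermo1), an inhibitor of osteoblast and adipocyte maturation in early mesenchyme, read 43.6 and 102, a log2 ratio of 1.23. It was the 371st highest of the 10057 genes. Genes of this signal differ often: of 1923 with similar signal 9.52% were at least 2-fold higher. With a pseudocount of 50, which shrinks differences of dim genes, the log2 ratio of Twist2 was 0.70, under 2-fold. Twist1, whose loss of 1 copy causes early fusion of the skull sutures, read 248 and 329, a log2 ratio of 0.41 that is within the pooled SD of 0.44 between probe sets of a gene. Of 1970 genes of similar signal 5.94% differed by at least 2-fold either way. The annotation used assigns 1 probe set to each Twist gene, and both were higher in the Ebf2-/- cells.

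The 250 bases before the RefSeq start site of Twist2 (plus strand, chr1:91801211-91801460, GRCm38.p6) are shown as those of the member with the highest ratio, and hold the only EBF core match among the members searched.
Twist2: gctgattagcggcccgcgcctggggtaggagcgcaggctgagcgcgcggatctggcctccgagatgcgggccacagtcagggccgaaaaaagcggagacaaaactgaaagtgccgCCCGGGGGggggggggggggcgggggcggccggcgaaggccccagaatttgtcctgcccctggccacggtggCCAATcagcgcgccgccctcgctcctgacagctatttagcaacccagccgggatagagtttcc
Capitals mark the EBF core match (cccggggg, starting 135 bases before the start site, in a run of G) and a CCAAT match (63 bases before it). No E-box, TAATTG, Runx, Smad or TATAAA match was found. The window of Twist1 holds 1 CCAAT match (89 bases before its start site) and 1 TATAAA match (126 bases before). All 4 windows searched, those of Msx1, Msx2, Twist1 and Twist2, hold CCAAT, in genes of both directions. Of all windows 33.9% hold it, and it was added to the search after these sequences were seen. A match is a run of letters and was not tested as a site. Of the 9 members 5 have a window in the RefSeq table, and Sp7, Dlx3, Dlx5 and Dlx6 have none.

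Among 25 measured partners and other regulators of the osteoblast programme, 2 passed 2-fold upwards (8%) and 1 downwards (4%), shares near the 6.30% and 3.46% of all measured genes. The upward count ranged from 1 to 6 across the alternatives. The 23 above the floor on both arrays had a median log2 ratio of 0.07, or -0.11 with spike-in scaling. Cbfb, the subunit that Runx proteins need to bind DNA, read 1397 and 1218. Atf4, which works with Runx2 on late osteoblast genes, read 2148 and 2348. The C/EBP factor gene Cebpd was 3.40-fold higher (325 and 1103), and Pparg, the adipocyte factor that opposes osteoblast fate, was 2.15-fold higher (42.9 and 92.0), but under 2-fold with spike-in scaling (log2 ratio 0.93) and a pseudocount of 50 (0.61). Maf (653 and 335) and Ets1 (135 and 69.2) were 1.95-fold lower, and both passed 2-fold with spike-in scaling (log2 ratio -1.14 for each). These values depend on the probe set. A dimmer Maf probe set read 31.0 and 79.5, the other way. The mean over probe sets with the floor gave log2 ratios of 0.01 for Maf and -0.23 for Ets1. Each of these means includes a probe set below both floors, which the unequal floors set to 0.42. The other Ets1 probe set above the floor on both arrays read 96.7 and 79.8, 1.21-fold lower. Dimmer probe sets also passed 2-fold upwards for the coactivator gene Wwtr1 (89.4 and 212, against 998 and 905 by the brightest) and for Zfp521 (49.1 and 133, against 374 and 594). Of the Runx relatives, Runx1 read 64.6 and 97.5, 1.51-fold higher, and its other 3 probe sets above the floor on both arrays gave 1.42-fold, 1.94-fold and 2.36-fold. Runx3 read 61.2 and 21.7 and was at least 2.57-fold lower by 1440275_at, while its other probe set was below the floor on both arrays; with a floor at the 99th percentile its log2 ratio was -0.92.

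Among other mesenchymal homeobox, basic helix-loop-helix and zinc finger genes, 3 of 22 measured passed 2-fold upwards (13.6%) and 0 downwards. The shares of all measured genes were 6.30% and 3.46%. By class, 0 of 7 homeobox, 1 of 11 basic helix-loop-helix and 2 of 4 zinc finger genes passed upwards. The median log2 ratio was 0.32 for the 19 above the floor on both arrays, and 0.15 at the lowest across the alternatives. It was 0.13 for the homeobox and 0.12 for the basic helix-loop-helix genes among the 19. The zinc finger repressor genes Snai1 (4.48-fold higher, 59.7 and 267) and Zeb2 (3.58-fold, 32.4 and 115.8) and the inhibitor of basic helix-loop-helix factors Id4 (2.43-fold, 318 and 773) made up the 3. Zeb2 was 1.95-fold to 3.58-fold higher by its 3 probe sets above the floor on both arrays. Its mean over probe sets with the floor was 0.94 on the log2 scale, including probe sets below both floors, each set to 0.42. The 3 probe sets of Id4 gave 2.03-fold to 2.43-fold. Meis1 read 47.0 and 89.6. In contrast the BMP-induced genes Id1 (498 and 436), Id2 (473 and 458) and Id3 (1942 and 2117) were nearly equal on both arrays. By their brightest probe sets the Twist partner genes Tcf3 (173 and 225), Tcf4 (578 and 787) and Tcf12 (598 and 502), which encode E proteins, were under 2-fold, as were the limb mesenchyme genes Prrx1 (2295 and 2868) and Prrx2 (1401 and 1292). Dimmer probe sets of Prrx1 gave larger values, 2.17-fold higher (269 and 584), 2.78-fold higher (114 and 318) and 1.80-fold higher (221 and 398), and another read 219 and 218. Of the Tcf12 probe sets above the floor on 1 array, one was at least 2.20-fold lower (52.5 and 13.8) and one at least 2.60-fold higher (13.5 and 46.3).

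Genes that Runx2, Sp7 and Dlx5 are known to switch on were split. Of 13 measured, 3 passed 2-fold upwards (23.1%) and 1 downwards (7.69%), beside 6.30% and 3.46% of all measured genes. The 12 above the floor on both arrays had a median log2 ratio of 0.37, and of 0.20 at the lowest across the alternatives. Bglap, Bglap2, Spp1, Phospho1 and Enpp1 of this list were not analysed here. The collagenase gene Mmp13 was 3.04-fold higher (92.3 and 280.1). Col1a1 read 5478 and 12784 by its brighter probe set but 1375 and 982 by the other, and Col1a2 read 8597 and 15008. Alpl passed 2-fold narrowly, with 0.85 on the log2 scale under spike-in scaling. The osteoprotegerin gene Tnfrsf11b was the one that passed 2-fold downwards, by at least 5.11-fold (122 and 23.0). Of the 12 above the floor on both arrays, 7 had higher and 5 lower signal in the Ebf2-/- cells. Those 5 were each under 2-fold by the brightest probe set, among them Fmod (9720 and 5970), Col11a1 (2764 and 1778) and Ank (449 and 300). Another Fmod probe set was 2.89-fold lower (1408 and 487). A further 9 genes of the list, among them the matrix genes Ibsp, Dmp1 and Mepe and the osteocyte product Sost, were not above background on either array.

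Of 21 measured genes of the BMP pathway, the usual input to Msx and Dlx genes, 5 passed 2-fold upwards (23.8%) and 0 downwards. The shares of all measured genes were 6.30% and 3.46%. The median log2 ratio was 0.32 for the 16 above the floor on both arrays, and 0.14 at the lowest across the alternatives. Bmp7 (18.9 and 9.39) and Bmpr1b (21.0 and 13.6) were above the floor on the Ebf2+/- array only and give no fold. Nog (29.0 and 17.2) was at least 1.22-fold lower, so its full size is not known. The ligand gene Bmp4 was 2.97-fold higher (506 and 1504), Bmp6 at least 3.61-fold (16.1 and 64.3; log2 ratio 0.79 with a pseudocount of 50), and the activin and BMP receptor gene Acvr2a 3.84-fold (241 and 923) and 2.37-fold by its other probe set. The BMP antagonist gene Chrdl1 was 7.89-fold higher (48.7 and 385), and its other 3 probe sets gave 7.04-fold, 6.15-fold and at least 4.98-fold. The inhibitory Smad gene Smad7 read 68.7 and 140.5 by one probe set and 41.9 and 33.4 by the other, so its direction differs between them. The signal carriers Smad1 (401 and 345), Smad5 (203 and 302) and Smad4 (788 and 880.1) and the feedback inhibitor Smad6 (301 and 307) were under 2-fold. The part of BMP signalling in the lower Msx1 and Msx2 signals was not tested.

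Of the FGF and suture genes tied to Twist1, 3 of 11 measured passed 2-fold upwards (27.3%) and 1 downwards (9.09%). The shares of all measured genes were 6.30% and 3.46%. The median log2 ratio was 0.26 for the 10 above the floor on both arrays, and 0.08 at the lowest across the alternatives. The ephrin gene Efnb1 was 3.11-fold higher (110.0 and 343), and its other probe sets gave 3.00-fold and 2.81-fold. The ephrin receptor gene Epha4 was 2.29-fold higher (48.4 and 111), but 1.94-fold and 1.05-fold by 2 other probe sets. Fgf18, a ligand of bone and cartilage, was at least 2.20-fold higher (1.75 and 39.2), with a log2 ratio of 0.72 when the same floor was used on both arrays. Fgfr3, an FGF receptor gene of cartilage and late osteoblasts, was 3.96-fold lower (119 and 30.0). Its other probe set was below the floor on both arrays. The mean over both, with that one set to 0.42 by the floors, gave a log2 ratio of -0.78. Fgfr2 read 1169 and 619, 1.89-fold lower, and 2.39-fold lower by another probe set, and Fgfr1 read 506 and 498 by its brightest probe set. Other Fgfr1 probe sets were higher in the Ebf2-/- cells, 2.14-fold (162 and 347) and 1.38-fold (25.0 and 34.4).

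**Figure D3:**
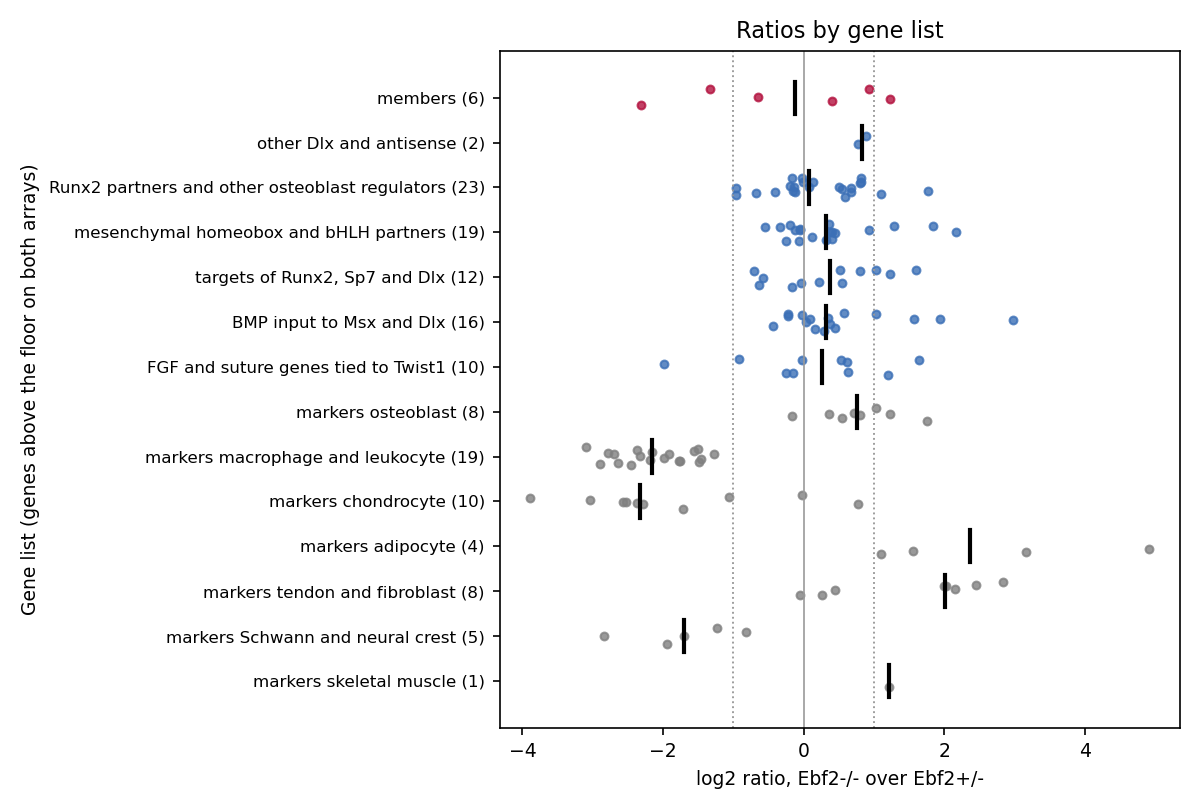
log2 ratio (Ebf2-/- over Ebf2+/-) of each gene above the floor on both arrays (points, 1 per gene), by gene list, with the number of genes in parentheses and a black bar at each list's median; dotted lines mark 2-fold. The 6 members (red) spread from -2.31 to 1.23 around a median of -0.12, related lists (blue) centre between 0.07 and 0.83, and macrophage, chondrocyte and Schwann cell markers (grey) lie mostly to the left.

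Markers of other cell types moved beside these genes, some by more. All 19 measured macrophage and leukocyte genes of a list of 20 were at least 2-fold lower in the Ebf2-/- cells, and their summed signal was 16079 and 4497. Among chondrocyte genes 8 of 12 measured passed 2-fold downwards and 0 upwards (summed signal 15543 and 4367), with Col9a3 14.8-fold lower and the hypertrophic marker Col10a1 not above background on either array. Of 7 measured Schwann cell and neural crest genes 5 did so (1171 and 343). Ngfr, in that list, was 7.14-fold lower. In the other direction, 5 of 6 measured adipocyte genes passed 2-fold upwards and 1 downwards (851 and 2912), as did 6 and 0 of 9 measured tendon and fibroblast genes (4448 and 13355). Lpl gave 611 and 1803 of the adipocyte sum, and the adipocyte genes Cidec, Lep, Retn and Plin4 were not above background on either array. Of all measured genes 6.30% passed 2-fold upwards and 3.46% downwards. Osteoblast markers summed to 32098 and 59861, with 3 of 8 measured (Postn, Col1a1 and Alpl) past 2-fold upwards and 0 downwards. The largest parts came from Sparc (12049 and 17570), Col1a2 (8597 and 15008), Col1a1 and Postn, named above as osteoblast and mesenchyme markers. The other Col1a1 probe set was lower in the Ebf2-/- cells (1375 and 982). Alpl was dim and under 2-fold with the pseudocount (0.43 on the log2 scale). The sum was not tested as a measure of osteoblasts. Of 8 endothelial and 8 skeletal muscle genes, 6 and 7 were not above background on either array. The part of these other cell types in the values of Msx1, Msx2, Twist2 and the other members was not tested.

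Across 9 alternative ways of processing and 2 chosen after seeing the data, Msx2 stayed at least 2-fold lower each time, with log2 ratios from -2.48 to -1.34. Twist2 was past 2-fold in 10 of 11 and Msx1 in 8 of 11, while Sp7, Twist1 and Dlx5 were under 2-fold in each that gave a value.

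**Figure D4:**
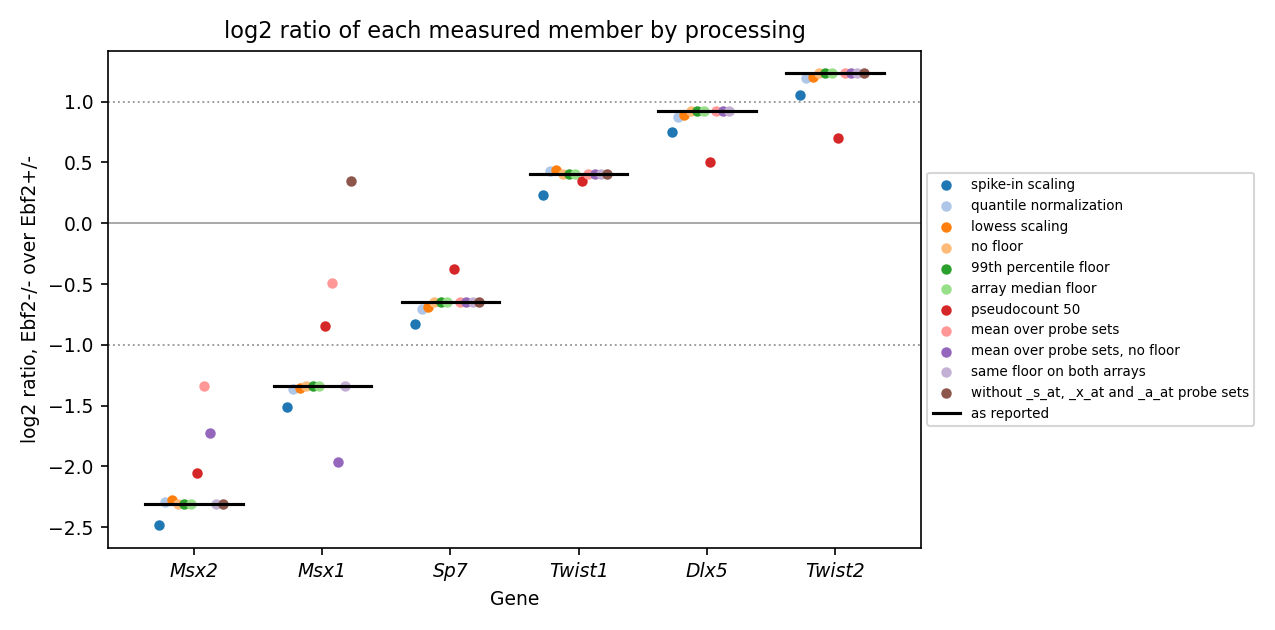
log2 ratio (Ebf2-/- over Ebf2+/-) of the 6 measured members as reported (black bars) and under each alternative (coloured points); dotted lines mark 2-fold. Msx2 stays below the lower line, Msx1 ranges from -1.97 to 0.35, and Sp7, Twist1 and Dlx5 keep their sign and stay between the lines.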

How the data were processed

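Expression was measured on Affymetrix Mouse Genome 430 2.0 arrays, 1 for Ebf2+/- and 1 for Ebf2-/- cells. The deposited values are intensity values, computed by the authors with MAS5 (per the submitters' processing notes, without a version), for 45101 probe sets. Leaving out 2% of values at each end, their mean was 100.001 on both arrays, so a shift shared by most genes cannot be seen.

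Symbols came from the platform annotation: 34958 probe sets had 1 symbol, 932 several and 9211 were not listed. The gene ID of 34754 was found in the RefSeq table (GRCm38.p6), which changed 0 symbols. Values at or below the floor of an array were set to it before the log2 ratio was taken. The words "at least" mark a fold with 1 array at the floor. Because the floors differ, a probe set below both got a log2 ratio of 0.42. Such probe sets draw floor-set means over probe sets towards that value. No p-value was computed, and 2-fold is the reference size. Depth is not defined for arrays; their number limits the precision.

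The members, gene lists and motifs were chosen with earlier results of these data known. The naming rule took all members, Ebf2, the 3 genes nearest to Msx2 and 3 genes per marker list. It also took the 4 genes per related list with the largest ratio among those above the floor on both arrays. Not all of these marker genes are printed, and any other gene was picked with its values in view. The scripts were first tested on simulated signals with known differences. Alternatives changed the scaling (spike-in, quantile, lowess), the floor, the pseudocount (50) and the choice of probe set. Python 3.11.15, pandas 2.3.3 and statsmodels 0.14.6 were used.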

Additional observations from a re-analysis of the deposited data

How the results depend on the processing

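With a pseudocount of 50 the number of members at least 2-fold higher was 0 (Twist2 0.70 on the log2 scale) and the number at least 2-fold lower was 1 (Msx2). Averaging the floor-set ratios of a gene's probe sets gave 1 member lower, as did leaving out probe sets ending in _s_at, _x_at or _a_at (1). That last setting left 5 measured members with a median log2 ratio of 0.35. It also turned the sign of Msx1 to 0.35, by its construction, since the remaining probe set (18.7 and 3.10) is compared at floors of 17.8 and 23.8. The same 0.35 enters the floor-set mean of Msx1. Averaging probe sets without a floor, an alternative chosen after seeing the data, turned the sign of Fgfr3 (0.49) and Runx3 (1.01), each through a second probe set below the floor on both arrays. Every other alternative kept the counts of members at 1 higher and 2 lower. Spike-in scaling moved the median of all measured genes from 0.03 to -0.14, and the shares at least 2-fold higher and lower from 6.30% and 3.46% to 4.48% and 5.30%; the 6 measured members keep their direction under it. The shares over all measured genes were 2.38% and 1.14% with the pseudocount, 8.46% and 7.91% without a floor, 4.55% and 2.04% for floor-set means over probe sets, and 11.3% and 9.91% for means without a floor. The count past 2-fold ranged from 1 to 6 upwards and from 0 to 3 downwards for Runx2 partners and other osteoblast regulators. It was 3 to 6 and 0 to 2 for BMP genes, and 1 to 3 and 0 to 2 for FGF and suture genes. For the homeobox, basic helix-loop-helix and zinc finger list it was 2 to 4 and 0 to 1, and for targets 2 to 3 and 1. No paired analysis was possible because each genotype has 1 array. Leaving out a replicate was not possible either. The arrays hold no spread between animals or cultures. Values close to or below the floor, such as those of Dlx3 and Dlx6, cannot show a difference at this signal.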
